A study of Mus musculus with 8 samples.

Results

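The leptomeninges, the arachnoid and pia that cover the brain, close off the cerebrospinal fluid from the dura. Arachnoid barrier cells are joined by tight and adherens junctions, and they and the neighbouring meningeal fibroblasts carry membrane transporters that move organic anions, organic cations, dicarboxylates, sulfate and amino acids. Of 46078 gene identifiers in each count table, 10 genes of this barrier were chosen by name: the amino acid transporters *Slc6a13* and *Slc6a20a*, the anion transporters *Slc13a3*, *Slc13a4*, *Slc22a6* and *Slc22a8*, the cation exporter *Slc47a1*, the cell surface peptidase *Dpp4*, and the junction genes *Cldn11* and *Cdh1*. They were found by their Ensembl identifiers, and the rule itself sets no threshold on a measured value. All 10 passed the filter on low counts, which kept 14736 genes for testing, and the smallest count of a member in any library was 143.

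RNA was sequenced from infarcts of wild-type C57BL/6J mice aged 18 months, all of which had DH stroke, a distal occlusion of the middle cerebral artery combined with hypoxia. From week 1 after stroke the mice were injected subcutaneously 3 times per week over 6 weeks, either with phosphate-buffered saline (vehicle, n = 4) or with 4 g/kg 2-hydroxypropyl-β-cyclodextrin (HPβCD, n = 4), a cyclic sugar that solubilizes cholesterol. Infarcts were collected 7 weeks after stroke. Because dissection was manual, the amounts of meninges and of surrounding brain in a piece could vary between animals, and in bulk tissue fewer cells of a type and less RNA per cell cannot be told apart.

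Libraries held between 16.6 M and 32.9 M gene counts. Values below are CPM, counts scaled to a common library total corrected for composition by TMM factors, and a gene is called where the quasi-likelihood test of edgeR gave a p under 0.05 after Benjamini-Hochberg adjustment across all tested genes. Differences are log2 fold changes of HPβCD over vehicle. Libraries of vehicle animals 1 and 3 stood apart by their neuron markers, which summed to 952 and 6009 CPM there and to between 7.78 and 81.7 CPM in the other 6 libraries. All 13 leptomeningeal genes of a marker list passed the filter. They summed to between 4516 and 5956 CPM in vehicle and between 6729 and 8083 CPM in HPβCD infarcts. Most of this sum was *Ptgds*, the prostaglandin D2 synthase that oligodendrocytes also express. *Foxc1* and *Zic1*, factors of meningeal cells, were at 90.4 CPM or more in each of the 8 infarcts.

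Promoter sequences of 8 of the 10 genes were matched in a RefSeq table for GRCm38.p6 that holds 32851 windows, each running from 250 bases before a transcription start to 50 bases after it. Of the member windows, 4 are printed 5′ to 3′ on the strand of the gene, with GC boxes (GGGCGG, searched on both strands) in capitals. *Slc6a13* is shown, in the window nearest to its annotated start, because it had the largest negative difference of the 10 genes. *Slc13a3* and *Slc22a6* are shown because their levels were the most alike across libraries, and *Slc22a8* because it is the neighbour of *Slc22a6* on chromosome 19. The window of *Slc22a8* begins at 8592932 and lies inside the annotated gene, which starts at 8591254.
Slc6a13, chr6:121300038-121300337, plus strand: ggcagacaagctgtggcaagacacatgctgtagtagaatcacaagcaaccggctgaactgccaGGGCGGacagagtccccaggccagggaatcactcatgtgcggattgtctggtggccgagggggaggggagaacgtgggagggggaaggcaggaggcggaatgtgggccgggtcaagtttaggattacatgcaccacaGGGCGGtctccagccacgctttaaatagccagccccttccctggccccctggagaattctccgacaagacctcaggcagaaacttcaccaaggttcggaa
Slc13a3, chr2:165473148-165473447, minus strand: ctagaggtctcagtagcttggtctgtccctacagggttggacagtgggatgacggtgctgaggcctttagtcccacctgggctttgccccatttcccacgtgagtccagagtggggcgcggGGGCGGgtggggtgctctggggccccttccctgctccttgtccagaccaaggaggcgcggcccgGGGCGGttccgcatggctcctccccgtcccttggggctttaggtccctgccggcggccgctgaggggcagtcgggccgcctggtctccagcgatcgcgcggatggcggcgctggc
Slc22a6, chr19:8617746-8618045, plus strand: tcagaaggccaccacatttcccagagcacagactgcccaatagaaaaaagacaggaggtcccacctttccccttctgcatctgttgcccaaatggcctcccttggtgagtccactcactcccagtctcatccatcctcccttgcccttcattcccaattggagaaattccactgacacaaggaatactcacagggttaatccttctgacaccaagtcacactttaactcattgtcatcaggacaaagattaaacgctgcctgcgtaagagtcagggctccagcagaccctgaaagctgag
Slc22a8, chr19:8592932-8593231, plus strand: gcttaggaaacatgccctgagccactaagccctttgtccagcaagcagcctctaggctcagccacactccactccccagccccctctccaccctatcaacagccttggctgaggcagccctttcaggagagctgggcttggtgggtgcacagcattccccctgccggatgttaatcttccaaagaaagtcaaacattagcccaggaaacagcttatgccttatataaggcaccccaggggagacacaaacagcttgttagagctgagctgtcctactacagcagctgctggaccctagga

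The windows of *Slc13a3* and *Slc22a6* differed in CpG content, while their transcripts had the most similar profiles of the set. That of *Slc13a3* held 22 CpG dinucleotides and that of *Slc22a6* held 2, against a median of 7 over all windows. The window of *Slc22a8* held 1. In *Slc6a13* the GC boxes lay 187 and 50 bases upstream of the start, and in *Slc13a3* 129 and 65 bases upstream. GC boxes were found in 5 of the 10 windows of the 8 genes, against 35.7% of all windows. The forkhead core TGTTTAC was in none of the 10 windows and in 3.65% of all windows. The E-boxes CACCTG (20.2% of all windows) and CACGTG (7.15%) were found in the window of *Slc13a3* alone, and TATAAA (13.6%) in that of *Dpp4* alone. A match describes these letters and not a bound site. A further motif was searched and is not reported here.

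None of the 10 genes was called, higher or lower. Over all tested genes 1.17% were called higher and 0.774% lower, so a count of 0 among 10 lies near the background. At an unadjusted p under 0.05 there were 2 of 10, *Slc6a13* and *Slc47a1*, against 27.8% of all tested genes. DESeq2, the test used in the study, and limma-voom with quality weights each gave an adjusted p under 0.05 for this pair, against 17.0% and 22.1% of all genes by the respective test. The other 8 genes had log2 fold changes between -0.30 and 0.20, with edgeR adjusted p between 0.193 and 0.830. Their 95% intervals together ran from -0.73 to 0.89, so for several of them a change of moderate size in either direction lies within the interval. The median absolute log2 fold change was 0.18 over the 10 genes and 0.31 over all tested genes. Vehicle and HPβCD values were fully apart in 1 of the 10 genes, *Slc6a13*, against 16.8% of all tested genes.

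**Figure D1:**
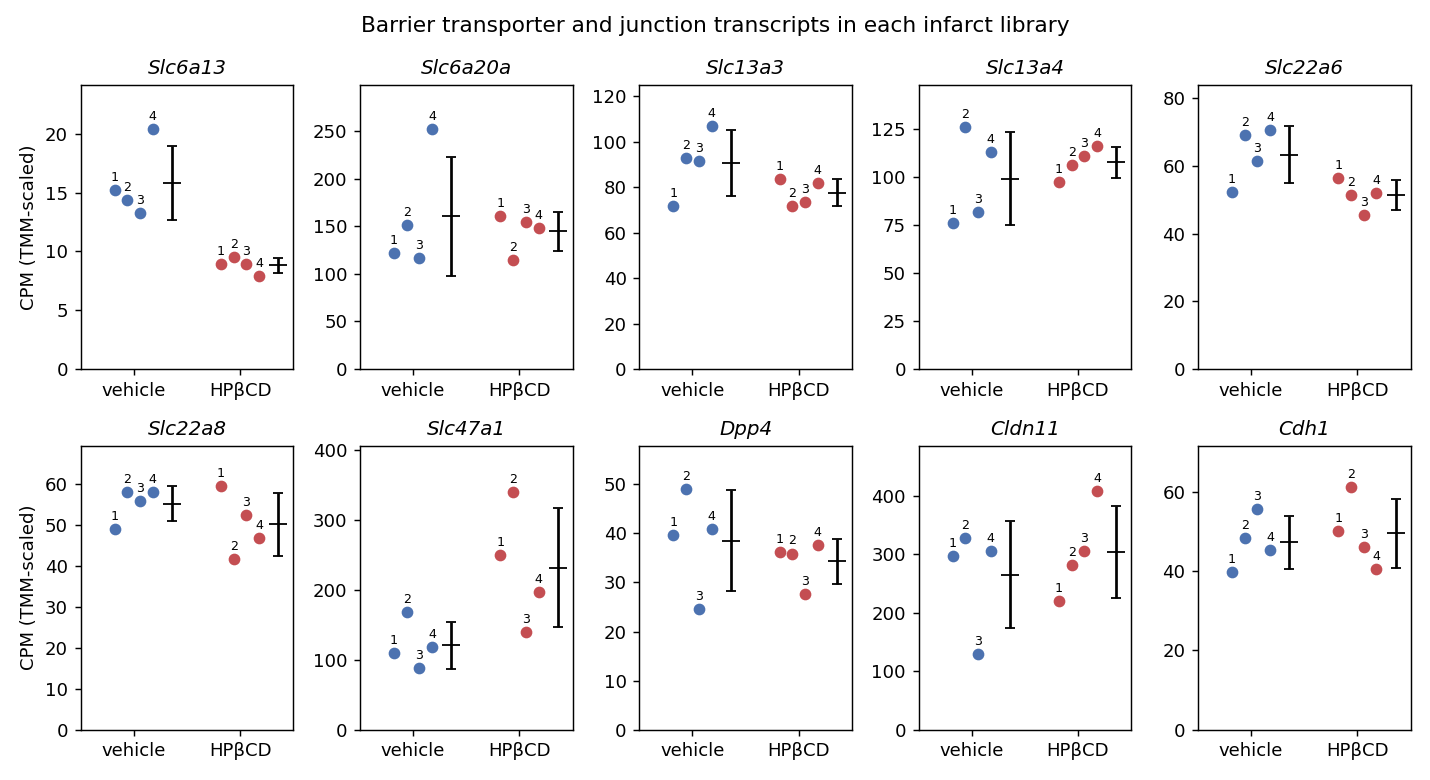
CPM of each of the 10 genes (vertical axes, linear, from 0) in the 4 vehicle libraries (blue) and the 4 HPβCD libraries (red), numbered by animal, with mean and SD in black. The groups are apart for Slc6a13, where vehicle infarcts held 13.3 to 20.4 CPM and HPβCD infarcts 7.94 to 9.50 CPM, and overlap in the other 9 genes.

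The amino acid transporters differed from each other. *Slc6a13* (ENSMUSG00000030108, chromosome 6, 121300227 to 121337733, plus strand) encodes GAT2, a sodium-coupled carrier of GABA, taurine and betaine that marks meningeal fibroblasts. It was at 15.2, 14.4, 13.3 and 20.4 CPM in vehicle animals 1 to 4 and at 8.91, 9.50, 8.96 and 7.94 CPM in HPβCD animals 1 to 4. Every HPβCD infarct lay below every vehicle infarct. The means were 15.8 ± 3.14 and 8.83 ± 0.649 CPM (SD, n = 4 each), and the log2 fold change was -0.84 (SE 0.17, 95% interval -1.24 to -0.44; edgeR adjusted p = 0.0502). This p missed the threshold by a narrow margin. DESeq2 gave an adjusted p of 0.00211. With vehicle animal 3 left out, edgeR gave -0.91 and an adjusted p of 0.0319, and with the other animals left out in turn the adjusted p lay between 0.0507 and 0.177. Without the neuron-rich vehicle libraries 1 and 3 the fold change was -0.96 (edgeR adjusted p = 0.0504).

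*Slc6a20a* (ENSMUSG00000036814, chromosome 9, 123634770 to 123678885, minus strand) encodes SIT1, a carrier of proline and other imino acids. Vehicle infarcts held 122, 151, 117 and 252 CPM and HPβCD infarcts 160.4, 115, 155 and 148 CPM. Vehicle animal 4 was the highest, and the remaining 7 libraries were intermixed. The log2 fold change was -0.15 (SE 0.25, 95% interval -0.73 to 0.43; edgeR adjusted p = 0.748), and it was 0.17 without vehicle animal 4. Exons of other genes on the opposite strand cover 14.9% of its exon length, and the strand option of the counting was not stated. Its near copy *Slc6a20b* held at most 0.339 CPM in any library.

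Other SLC6 carriers of the list were mostly those of neurons and astrocytes. Of 18 genes, 11 were tested, and 0 were called by edgeR. DESeq2 called 7 and limma-voom 6, against 17.0% and 22.1% of all genes by the respective test. An unadjusted p under 0.05 was found for 9, against 27.8% of all tested genes. The median log2 fold change was -1.09 against -0.05 over all tested genes, with 3 of 11 positive. Without the neuron-rich vehicle animals 1 and 3 the median was -0.57, with 5 of 11 positive. *Slc6a6*, the taurine transporter, stood at 475 ± 106 and 773 ± 62.1 CPM (log2 fold change 0.70, edgeR adjusted p = 0.0724).

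The sodium-coupled anion carriers showed little difference. *Slc13a3* (ENSMUSG00000018459, chromosome 2, 165405028 to 165473230, minus strand) encodes NaDC3, which takes up dicarboxylates such as succinate. It was measured at 71.7, 93.0, 91.6 and 107 CPM in vehicle and at 83.5, 71.8, 73.7 and 81.8 CPM in HPβCD infarcts. The groups overlapped through vehicle animal 1, and the log2 fold change was -0.22 (SE 0.14, 95% interval -0.55 to 0.10; edgeR adjusted p = 0.346). *Slc13a4* (ENSMUSG00000029843, chromosome 6, 35267957 to 35308131, minus strand) encodes a sulfate carrier. It was at 75.9, 126, 81.5 and 113 CPM in vehicle and at 97.2, 106, 111 and 116 CPM in HPβCD infarcts. All HPβCD values fell inside the vehicle range, which was set at its lower end by vehicle animals 1 and 3 (log2 fold change 0.12, SE 0.18, 95% interval -0.30 to 0.53; edgeR adjusted p = 0.723). Without those animals the fold change was -0.14. Of 3 other SLC13 genes only *Slc13a5*, a citrate carrier, was tested, and it reached 17.9 CPM in animal 3 and 3.56 CPM in animal 1 of the vehicle group while staying under 1 CPM in the remaining libraries.

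*Slc22a6* and *Slc22a8* encode the organic anion exchangers OAT1 and OAT3, which take up drugs, urate and metabolites in exchange for dicarboxylates. They lie next to each other on chromosome 19, *Slc22a8* (ENSMUSG00000063796) from 8591254 to 8611835 and *Slc22a6* (ENSMUSG00000024650) from 8618039 to 8628299, both on the plus strand and 6203 bases apart. *Slc22a6* was at 52.4, 69.0, 61.4 and 70.6 CPM in vehicle and at 56.5, 51.5, 45.6 and 52.0 CPM in HPβCD infarcts. Only vehicle animal 1 lay within the HPβCD range, and the log2 fold change was -0.30 (SE 0.14, 95% interval -0.62 to 0.01; edgeR adjusted p = 0.193). *Slc22a8* was at 49.1, 58.1, 55.8 and 58.0 CPM in vehicle and at 59.5, 41.8, 52.5 and 46.9 CPM in HPβCD infarcts. Here the highest library was an HPβCD infarct, and the log2 fold change was -0.14 (SE 0.14, 95% interval -0.46 to 0.18; edgeR adjusted p = 0.571).

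Choroid plexus and brain endothelium can also contain *Slc22a8*, and choroid plexus can contain *Slc13a4* and *Slc47a1*. The choroid plexus list of 10 markers summed to between 21.9 and 33.9 CPM in vehicle and between 48.1 and 55.5 CPM in HPβCD infarcts. *Aqp1*, which other cells share, contributed 6.05 to 20.1 CPM in vehicle and 27.5 to 41.9 CPM in HPβCD infarcts, and *Clic6* 2.97 to 7.31 and 8.32 to 14.6 CPM. *Ttr*, which choroid plexus expresses at very high levels, was between 0.323 and 3.69 CPM, and *Kcne2* was at 0 in 6 of 8 libraries and at most 0.0575 CPM. *Prlr* was the 1 gene of this list that was called. It fell from 1.90 ± 1.10 to 0.214 ± 0.129 CPM (log2 difference -3.13, edgeR adjusted p = 0.0483). Without vehicle animals 1 and 3 its difference was -3.10 (edgeR adjusted p = 0.0674). Of the 8 brain endothelium markers 1 was called, the thyroid hormone and anion transporter *Slco1c1*, which fell from 31.6 ± 13.1 to 11.1 ± 1.26 CPM (log2 difference -1.51; edgeR adjusted p = 0.0483). Of the 8 endothelial fold changes 5 were positive and 3 negative, with a median of 0.19. *Cdh5* stood at 128 ± 26.9 and 202 ± 32.4 CPM (log2 difference 0.66, edgeR adjusted p = 0.0805). *Flt1* stood at 116 ± 28.7 and 130.4 ± 36.8 CPM (edgeR adjusted p = 0.703). The endothelial list summed to between 528 and 581 CPM in vehicle and between 502 and 785 CPM in HPβCD infarcts. Without the neuron-rich vehicle animals 1 and 3 the difference of *Slco1c1* was -0.88 (edgeR adjusted p = 0.0530). The part of endothelial cells in the level of *Slc22a8* was not tested.

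Among 23 other SLC22 genes, 8 were tested and 6 had no count in any library. One was called in each direction. *Slc22a18*, an imprinted gene for an organic cation transporter-like protein, rose from 7.43 ± 0.974 to 16.8 ± 4.87 CPM (log2 difference 1.18; edgeR adjusted p = 0.0483). *Slc22a23*, an orphan member of the family, fell from 60.5 ± 5.56 to 34.7 ± 5.83 CPM (log2 difference -0.80; edgeR adjusted p = 0.0483). *Slc22a17*, a receptor for lipocalin 2, stood at 171 CPM in vehicle animal 3 and between 20.1 and 76.3 CPM elsewhere, with no call. Without vehicle animals 1 and 3 neither *Slc22a18* nor *Slc22a23* was called (edgeR adjusted p = 0.0616 and 0.0820). Their log2 differences were then 1.31 and -0.72.

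*Slc47a1* (ENSMUSG00000010122, chromosome 11, 61343401 to 61378345, minus strand) encodes MATE1, which exports organic cations in exchange for protons. It was the gene with the largest positive difference of the 10. Vehicle infarcts held 109.6, 168, 88.9 and 118 CPM, and HPβCD infarcts 250.3, 341, 140.4 and 197 CPM. HPβCD animals 1, 2 and 4 lay above every vehicle infarct, while HPβCD animal 3 lay below vehicle animal 2. The means were 121 ± 33.5 and 232 ± 85.4 CPM (SD, n = 4 each), and the log2 fold change was 0.94 (SE 0.29, 95% interval 0.27 to 1.60; edgeR adjusted p = 0.0927). DESeq2 gave an adjusted p of 0.0266. Leaving out each animal in turn gave fold changes from 0.70 to 1.14, with edgeR adjusted p between 0.0587 and 0.239, so no single animal decided the direction.

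Exporters of the ABC family were led by *Abcc3*, a pump for conjugated organic anions such as bile acid conjugates and glucuronides. It rose from 51.1 ± 8.64 to 125 ± 25.6 CPM (log2 difference 1.29; edgeR adjusted p = 0.0405) and was the 1 gene called among 8 tested of 9 ABC efflux pumps. All 8 had positive fold changes, with a median of 0.40 against -0.05 over all tested genes, and 6 were positive without vehicle animals 1 and 3 (median 0.28). *Abcb1a*, the P-glycoprotein of the blood-brain barrier, stood at 184 ± 47.8 and 299.7 ± 60.2 CPM (edgeR adjusted p = 0.0940), and *Abcc4*, a pump for cyclic nucleotides and organic anions that barrier cells express, at 102 ± 16.0 and 126 ± 18.2 CPM (edgeR adjusted p = 0.255). *Slc47a2*, the only other SLC47 gene, was low at 1.23 ± 0.262 and 2.19 ± 0.501 CPM, with a log2 fold change of 0.82 (edgeR adjusted p = 0.109).

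*Dpp4* (ENSMUSG00000035000, chromosome 2, 62330073 to 62412231, minus strand) encodes dipeptidyl peptidase 4 (CD26), which trims peptides at the cell surface and is carried by arachnoid barrier cells, other fibroblasts and T lymphocytes. It was at 39.7, 49.1, 24.5 and 40.9 CPM in vehicle and at 36.2, 35.9, 27.6 and 37.7 CPM in HPβCD infarcts. The groups overlapped, and animal 3 was the lowest of each group. The log2 fold change was -0.17 (SE 0.22, 95% interval -0.66 to 0.33; edgeR adjusted p = 0.666). Of 6 T lymphocyte markers 0 were called by edgeR, DESeq2 or limma-voom, and 0 had an unadjusted p under 0.05. They summed to between 82.2 and 133 CPM in vehicle and between 62.2 and 161 CPM in HPβCD infarcts, with *Cd3e* highest in HPβCD animal 3 at 37.9 CPM, the HPβCD library where *Dpp4* was lowest. The 6 dendritic cell markers summed to between 20.3 and 38.5 CPM in vehicle and between 33.1 and 50.4 CPM in HPβCD infarcts, with 0 calls by the 3 tests and 0 at an unadjusted p under 0.05. Among 7 relatives of *Dpp4* the lysosomal dipeptidyl peptidase *Dpp7* rose from 73.3 ± 6.53 to 178 ± 36.4 CPM (log2 difference 1.28; edgeR adjusted p = 0.0389). It was the only relative called by edgeR. Of the 7 relatives 4 were called by DESeq2 and 3 by limma-voom, against 17.0% and 22.1% of all genes by the respective test. There were 5 at an unadjusted p under 0.05, against 27.8% of all tested genes. Both the DESeq2 calls and these 5 include *Dpp6* and *Dpp10*, which were lower in HPβCD infarcts (log2 differences -4.98 and -5.75). In the neuron-rich vehicle animals 1 and 3 *Dpp6* was at 49.3 and 128 CPM and *Dpp10* at 24.5 and 146 CPM. The other libraries held at most 3.33 and 1.66 CPM. *Fap* stood at 11.7 ± 4.93 and 25.1 ± 5.33 CPM (log2 difference 1.09, edgeR adjusted p = 0.0824), with the groups fully apart. The cytosolic *Dpp8* stood at 226 ± 28.8 and 180.5 ± 25.6 CPM (edgeR adjusted p = 0.209).

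*Cldn11* (ENSMUSG00000037625, chromosome 3, 31149920 to 31164324, plus strand) encodes claudin 11, the tight junction protein of arachnoid barrier cells and also of the myelin sheath of oligodendrocytes. It was at 297, 327, 129 and 305 CPM in vehicle and at 220.2, 281, 305 and 408 CPM in HPβCD infarcts. Vehicle animal 3 lay far below the other libraries, which were intermixed. The log2 fold change was 0.20 (SE 0.31, 95% interval -0.49 to 0.89; edgeR adjusted p = 0.718), and it was -0.026 without vehicle animal 3, so its sign rests on that library.

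The level of *Cldn11* was set beside both of its sources. The 8 oligodendrocyte markers summed to 5195, 2435, 1598 and 3203 CPM in vehicle animals 1 to 4 and to 178, 187, 2022 and 989 CPM in HPβCD animals 1 to 4. None was called by edgeR (1 at an unadjusted p under 0.05, 2 called by DESeq2 and 8 by limma-voom), and all 8 fold changes were negative. In HPβCD animals 1 and 2 the myelin gene *Mog* was at 0.345 and 0.184 CPM, yet *Cldn11* was at 220.2 and 281 CPM in these libraries. *Cldn11* was thus present in libraries where a defining marker of oligodendrocytes was close to 0. The 12 meningeal transcription factors summed to 619, 1057, 521 and 944 CPM in vehicle and to 1098, 1265, 809 and 1167 CPM in HPβCD infarcts. Vehicle animal 3, which had the least *Cldn11*, had the lowest sum of its group in both lists. HPβCD animal 3 had the lowest factor sum and the highest oligodendrocyte sum of its group, with *Cldn11* at 305 CPM. The part of either source in the level of *Cldn11* was not tested.

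**Figure D2:**
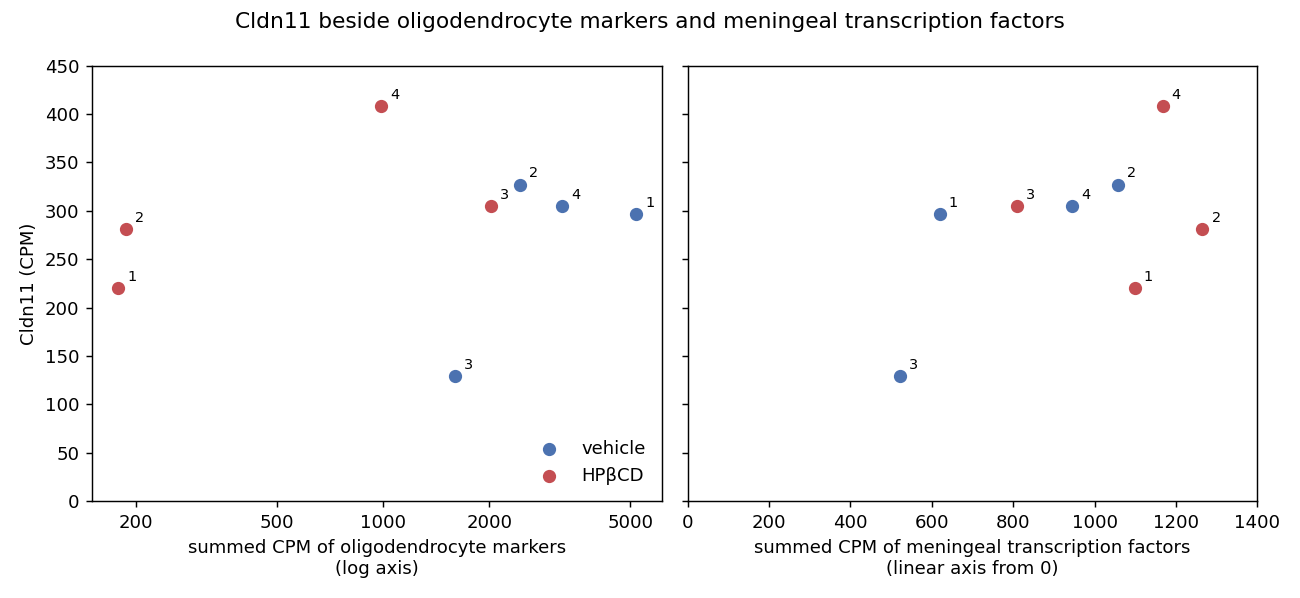
Cldn11 CPM (vertical axis, linear, from 0) in each library against the summed CPM of 8 oligodendrocyte markers (left, log axis) and of 12 meningeal transcription factors (right, linear axis from 0), vehicle in blue and HPβCD in red, numbered by animal. HPβCD animals 1 and 2 have oligodendrocyte sums of 178 and 187 CPM with Cldn11 at 220.2 and 281 CPM, and vehicle animal 3 is lowest in Cldn11 (129 CPM) and in the transcription factor sum (521 CPM).

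Among those 12 factors *Twist1*, a mesenchymal factor, was the 1 gene called. It rose from 11.2 ± 1.56 to 21.6 ± 4.21 CPM (log2 difference 0.95, edgeR adjusted p = 0.0483). Without vehicle animals 1 and 3 its difference was 0.82 (edgeR adjusted p = 0.0871). *Zic1* and *Foxc1*, both needed for meningeal development, were not called. *Zic1* stood at 231 ± 89.5 and 289 ± 64.9 CPM and *Foxc1* at 171 ± 67.6 and 223 ± 52.1 CPM, with edgeR adjusted p of 0.534 and 0.467. Both were lowest in vehicle animal 3, at 131 and 90.4 CPM. In the leptomeningeal list *Ptgds* stood at 4436 ± 500.5 and 5739 ± 539 CPM (edgeR adjusted p = 0.222), and the growth factor *Igf2* at 258 ± 80.7 and 686 ± 281 CPM (log2 difference 1.41; edgeR adjusted p = 0.0630). Of the 13 genes of that list 0 were called by edgeR, 4 by DESeq2 and 5 by limma-voom, and 5 had an unadjusted p under 0.05. The shares of all genes were 17.0% by DESeq2, 22.1% by limma-voom and 27.8% at an unadjusted p under 0.05. Fold changes were positive in 9 of the 13 genes and negative in 4, with a median of 0.37 against -0.05 over all tested genes. The values of *Ptgds* were fully apart between the groups.

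No other tight junction gene was called by edgeR. Of 30 further claudins, occludin family members, junctional adhesion molecules and scaffold genes, 14 were tested, with 2 at an unadjusted p under 0.05, 1 call by DESeq2, 2 by limma-voom and a median log2 fold change of 0.11, which was -0.10 without vehicle animals 1 and 3 and -0.01 with limma-voom. *Cldn4*, *Cldn8* and *Cldn16* had no count in any library. The scaffold *Tjp1* (ZO-1) stood at 249 ± 26.1 and 244 ± 21.7 CPM (log2 fold change -0.03, 95% interval -0.33 to 0.28; edgeR adjusted p = 0.918). The connexins, which couple meningeal cells through gap junctions, gave 0 calls by edgeR, DESeq2 or limma-voom among 6 genes, with 1 at an unadjusted p under 0.05. *Gjb6* stood at 386 ± 97.6 and 388 ± 138 CPM and *Gja1* at 336 ± 24.6 and 282 ± 48.3 CPM, with edgeR adjusted p of 0.991 and 0.313.

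*Cdh1* (ENSMUSG00000000303, chromosome 8, 106603351 to 106670246, plus strand) encodes E-cadherin, the adherens junction protein of epithelia that arachnoid barrier cells share. It was at 39.7, 48.4, 55.6 and 45.2 CPM in vehicle and at 50.2, 61.2, 46.1 and 40.5 CPM in HPβCD infarcts. The libraries of both groups were intermixed, and the log2 fold change was 0.07 (SE 0.17, 95% interval -0.31 to 0.45; edgeR adjusted p = 0.830). Epithelial markers were scarce beside it. The 7 genes of that list summed to between 4.09 and 6.69 CPM in vehicle and between 2.83 and 5.09 CPM in HPβCD infarcts. The epithelial splicing factor *Esrp1* was at 0 in 6 of 8 libraries and *Krt8* at no more than 0.268 CPM. *Epcam* stood at 2.56 ± 0.615 and 0.896 ± 0.375 CPM (log2 difference -1.51; edgeR adjusted p = 0.0565), and *Krt19* at 1.85 ± 0.558 and 2.66 ± 1.22 CPM.

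The called junction genes lay in the list of adherens junction and desmosome genes. Of 19 adherens junction and desmosome genes, all tested, 2 were called higher and 1 lower, against 1.17% and 0.774% of all tested genes. DESeq2 called 9 and limma-voom 8, against 17.0% and 22.1% of all genes by the respective test. An unadjusted p under 0.05 was found for 10, against 27.8% of all tested genes. *Ctnnd1* (p120 catenin), which holds cadherins at the membrane, rose from 18.1 ± 2.82 to 36.9 ± 5.84 CPM (log2 difference 1.03; edgeR adjusted p = 0.0472). *Jup* (plakoglobin), which links cadherins and desmosomes to the cytoskeleton, rose from 29.9 ± 2.27 to 55.0 ± 12.0 CPM (log2 difference 0.88; edgeR adjusted p = 0.0499). In both genes every HPβCD infarct lay above every vehicle infarct. Neither was called without vehicle animals 1 and 3 (edgeR adjusted p = 0.0584 for *Ctnnd1* and 0.0691 for *Jup*). The log2 differences were then 0.87 for *Ctnnd1* and 0.96 for *Jup*. *Cdh2* (N-cadherin), the cadherin of neurons and glia, fell from 23.3 ± 12.0 to 4.62 ± 1.71 CPM (log2 difference -2.33; edgeR adjusted p = 0.0483). Its vehicle values of 32.0, 10.9, 35.0 and 15.3 CPM were highest in animals 1 and 3, the libraries rich in neuron markers, and without these the difference was -1.49 (edgeR adjusted p = 0.0634). *Ctnnb1* (β-catenin) stood at 995 ± 197 and 1577 ± 98.5 CPM (log2 difference 0.66; edgeR adjusted p = 0.0780), and *Cdh11*, a cadherin of mesenchyme, at 214 ± 82.5 and 288 ± 69.7 CPM (edgeR adjusted p = 0.356). The repressors of E-cadherin gave 0 calls by edgeR, DESeq2 or limma-voom among 4 genes, with 1 at an unadjusted p under 0.05, *Zeb1* (90.4 ± 9.10 and 73.9 ± 5.97 CPM, edgeR adjusted p = 0.168), while *Zeb2* stood at 342 ± 83.6 and 352 ± 59.9 CPM.

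Levels were compared between the 10 genes as CPM per kilobase of exon, on the linear scale. In vehicle infarcts *Cldn11* was the highest, at 141 ± 48.7 (SD, n = 4), and its range of 69.0 to 175 did not meet that of *Slc6a20a* (28.6 to 61.6). *Slc47a1* followed at 35.8 ± 9.90, then *Slc13a4* (21.9 ± 5.35), *Slc13a3* (17.4 ± 2.76), *Slc22a6* (15.9 ± 2.09) and *Slc22a8* (14.1 ± 1.08), and from *Slc6a20a* to *Slc22a8* each neighbouring pair overlapped. *Cdh1* was below these at 10.3 ± 1.45, and *Dpp4* (6.10 ± 1.63) and *Slc6a13* (5.44 ± 1.08) overlapped at the bottom. In HPβCD infarcts the order was the same but for 1 exchange. *Slc47a1* stood second there, at 68.7 ± 25.2, above *Slc6a20a* at 35.4 ± 4.99, and their ranges of 41.5 to 101 and 28.1 to 39.3 did not meet. *Slc6a13* was last in both groups, at 3.04 ± 0.223 in HPβCD infarcts.

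The spread within a group was moderate. The median coefficient of variation (SD over mean) of the 10 genes was 22.2% in vehicle and 13.7% in HPβCD infarcts, against 24.8% and 17.9% over all tested genes. *Slc22a8* varied least in vehicle infarcts (7.67%) and *Slc6a20a* most (39.1%). In HPβCD infarcts *Slc6a13* varied least (7.35%) and *Slc47a1* most (36.7%).

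Each of the 10 genes was also set against fibroblast transcripts in the same library. All 6 fibroblast markers had positive fold changes, with a median of 0.94, and 2 were called. Without vehicle animals 1 and 3 the median was 0.52, with 5 of 6 positive. *Col1a1* rose from 314 ± 102 to 961 ± 199 CPM (log2 difference 1.61; edgeR adjusted p = 0.0483), as did *Col1a2*, which encodes the other chain of type I collagen, from 922 ± 246 to 2533 ± 436 CPM (log2 difference 1.46; edgeR adjusted p = 0.0462). The proteoglycan *Dcn* stood at 1667 ± 649 and 2896 ± 479.7 CPM (edgeR adjusted p = 0.129). The summed level of the list was 2348 to 6025 CPM in vehicle and 8657 to 9270.4 CPM in HPβCD infarcts.

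**Figure D3:**
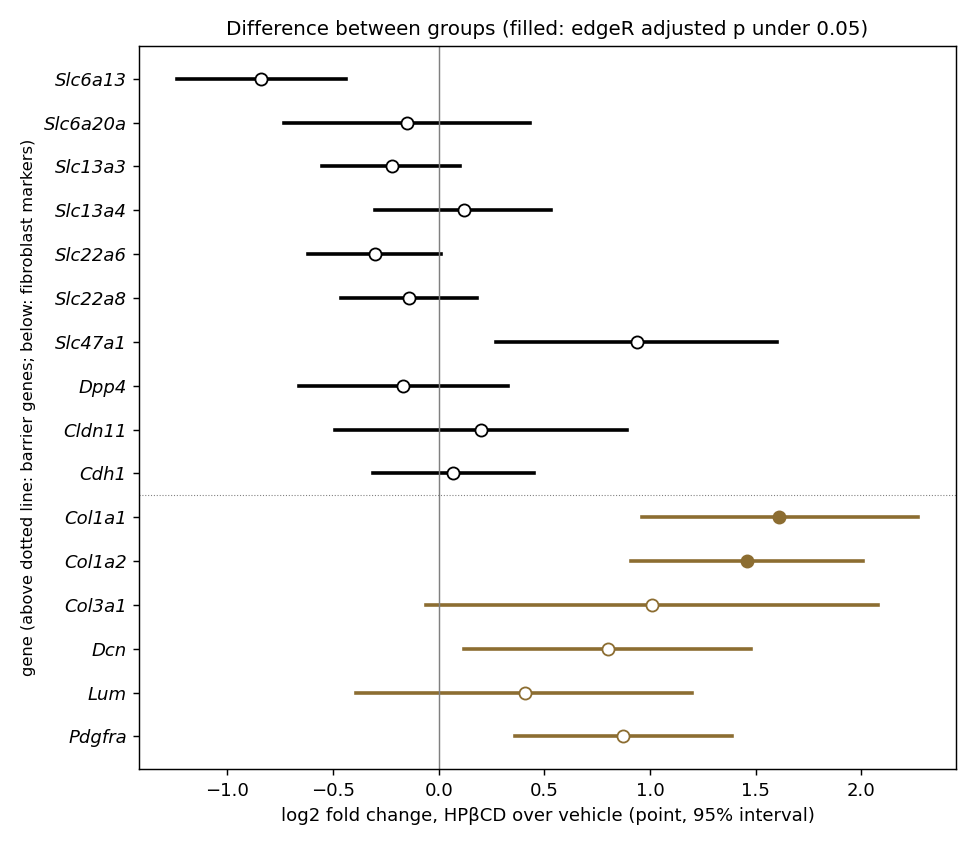
Log2 fold change of HPβCD over vehicle (horizontal axis) with its 95% interval for the 10 barrier genes (black) and 6 fibroblast markers (brown), n = 4 per group. Filled points have an edgeR adjusted p under 0.05: they are Col1a1 (1.61) and Col1a2 (1.46), and no barrier gene is filled.

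Relative to the mean log2 CPM of the 6 fibroblast markers, 9 of the 10 genes were lower in every HPβCD infarct than in every vehicle infarct. The same held for 67.7% of all tested genes, as the reference itself was on average 1.13 log2 units higher in HPβCD infarcts. *Slc6a13* had the largest shift, from -5.07 ± 0.55 to -7.02 ± 0.08 log2 units relative to the reference (difference -1.95), against a median of -1.16 over all tested genes. *Slc22a6*, *Slc13a3*, *Slc22a8*, *Dpp4* and *Slc6a20a* shifted by -1.43, -1.34, -1.28, -1.26 and -1.22 log2 units. *Cdh1*, *Slc13a4* and *Cldn11* shifted by -1.07, -0.99 and -0.88. *Slc47a1* overlapped, at -2.16 ± 0.35 in vehicle and -2.39 ± 0.54 in HPβCD infarcts (difference -0.23). This depended on the reference. Against *Dcn* alone its difference was 0.03, with overlapping groups, and against *Col1a2* alone it was -0.58, with every HPβCD infarct below every vehicle infarct. Against *Col1a2* 9 of the 10 genes were fully apart, with *Cldn11* as the overlapping one, and against *Dcn* 8 were, with *Cdh1* and *Slc47a1* overlapping. *Col1a2* and *Dcn* themselves had log2 fold changes of 1.46 and 0.80. The share of all tested genes was not computed for either reference. These counts therefore cannot be read as particular to the 10 genes.

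**Figure D4:**
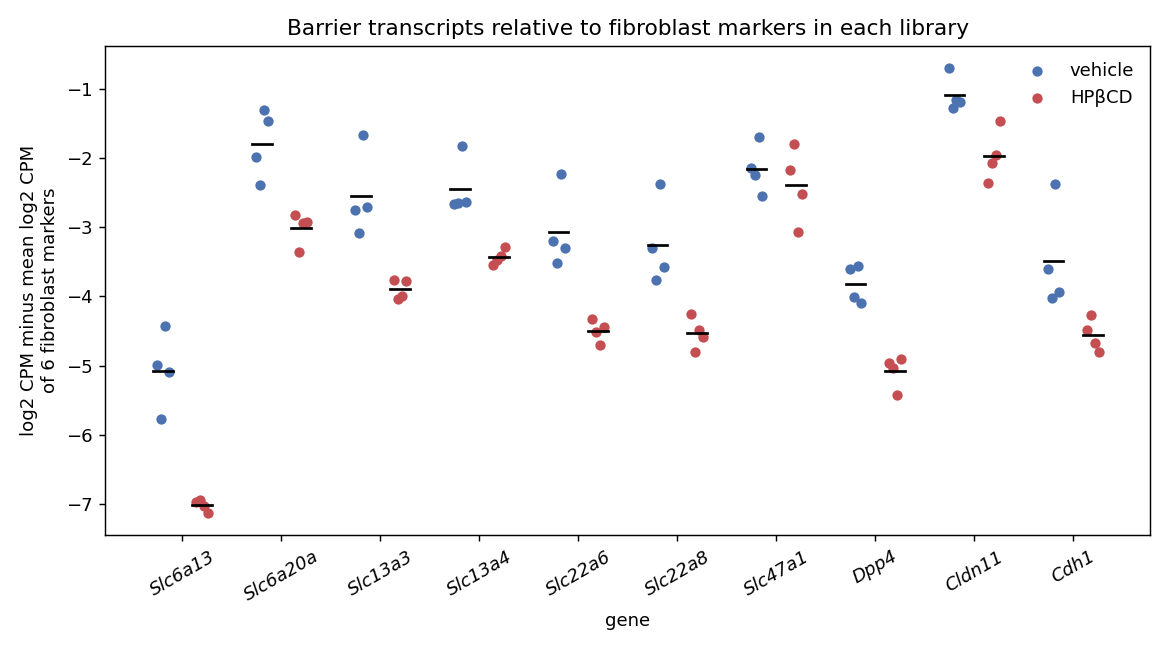
Log2 CPM of each of the 10 genes minus the mean log2 CPM of 6 fibroblast markers in the same library (vertical axis), vehicle in blue and HPβCD in red, with black bars at the group means. The groups are apart in 9 genes and overlap, against this reference, for Slc47a1 (means -2.16 and -2.39), and Slc6a13 has the widest gap (means -5.07 and -7.02).

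Likeness between the genes across the 8 libraries is given as a description, since all points share library, scaling and group. The highest Pearson correlation of log2 CPM within the set was that of *Slc13a3* with *Slc22a6*, at 0.90 over all libraries and 0.87 after the group means were removed. That of the neighbours *Slc22a6* and *Slc22a8* was 0.63 and 0.49. *Slc6a13* and *Slc47a1* were the most opposed pair over all libraries (-0.63), but at 0.21 not within groups. *Cldn11* and *Cdh1* were opposed in both readings (-0.58 and -0.65), and vehicle animal 3 was lowest of its group in the first and highest in the second. Of 45 pairs, 28 had a positive correlation.

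The mean profile of the 10 genes, as the log2 CPM of each gene minus its own average, was -0.13, 0.20, -0.24 and 0.24 in vehicle animals 1 to 4 and 0.03, 0.02, -0.12 and 0.00 in HPβCD animals 1 to 4. Among 13938 other genes with at least 1 CPM on average, the 5 most like it were *Utp6* (r = 0.970), *Fibin* (r = 0.956), *Cxadr* (r = 0.952), *Rchy1* (r = 0.949) and *Gtpbp10* (r = 0.944). *Cxadr* encodes an adhesion protein of tight junctions, with average levels of 199 CPM (vehicle) and 155 CPM (HPβCD). After the group means were removed the most like were *Kdelc1* (r = 0.991), *Sfrp4* (r = 0.988), *Adamts1* (r = 0.988), *Bicc1* (r = 0.986) and *Gpr137b* (r = 0.980). Of these *Sfrp4*, a secreted Wnt antagonist of fibroblasts, rose from 767 to 2401 CPM (log2 difference 1.65, edgeR adjusted p = 0.0483). Between animals of a group it followed the mean profile of the 10 genes. Their own pairwise correlations within groups ran from -0.65 to 0.87, so they did not share 1 profile. Between groups their median log2 fold change was -0.14, with *Slc47a1* at 0.94.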

How the data were processed

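RNA was measured by bulk sequencing of polyadenylated RNA in 8 infarcts, 4 per group, grouped by the sample labels. The authors trimmed reads with Trimmomatic 0.32, aligned them with STAR 2.5.2b to GRCm38 and counted reads per gene with HTSeq, and the values they deposited are raw counts per gene, without normalization. The strand option of the counting is not given in the sources used here, and reads aligned to several places are not assigned. Between 26.6% and 36.6% of the counted reads or alignments were assigned to no gene and were left out. Symbols matched 45143 of 46078 identifiers, and coordinates are those of GENCODE M21. Counts were tested with edgeR 4.0.16 in R 4.3.3 (robust quasi-likelihood F test, TMM, filterByExpr by group, no covariate), tested on simulated data first. Log2 CPM used a prior count of 2. Alternatives were DESeq2 1.42.0, limma 3.58.1 (voom with quality weights), other scalings and filters, thinning, a replicate block and leaving out animals. The labels name no batch.

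The 10 genes and all other lists were chosen with earlier results of these data known. Named from each list were up to 3 called genes per direction with the smallest p and the 2 tested genes with the highest mean CPM, except for some that are not reported here, and genes named beyond these were chosen after their values were seen. No list was tested as a set.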

Additional observations from a re-analysis of the deposited data

Results flagged for a closer look

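In 20 groups of 4 libraries (10 genes in vehicle and in HPβCD infarcts), a single library stood apart from the other 3 in 2 cases, where chance gives about 1 in 20 groups. *Cldn11* was at 7.01 log2 CPM in vehicle animal 3, against 8.21 to 8.35 in the other vehicle animals. The gap made up 0.896 of the range of the group. *Dpp4* was at 4.79 log2 CPM in HPβCD animal 3, against 5.17 to 5.24 in the other HPβCD animals, and the ratio was 0.840. Vehicle animal 3 was the library with the most neuron transcripts, and HPβCD animal 3 the HPβCD library with the most oligodendrocyte and neuron transcripts (summed CPM of 2022 and 81.7). The part of these in the low values was not tested.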

How the results depend on the processing

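Of 14736 genes, edgeR called 287. The count was 2899 with DESeq2, 3253 with limma-voom and 11 with library totals as the only scaling, and 9 (all lower) with the replicate block, a paired fit for which the labels give no basis, since the correlations of same-numbered animals ran from -0.257 to 0.329. It ran from 0 to 629 with single animals left out. Among the 10 genes the counts of 0 higher and 0 lower became 1 and 1 with DESeq2 and with limma-voom (*Slc47a1* higher, *Slc6a13* lower), and stayed at 0 higher and ran from 0 to 1 lower with single animals left out. The replicate block moved *Slc6a13* to -0.82 (edgeR adjusted p = 0.0991) and called none of the 10 genes. Without an animal, edgeR called 0 genes in 4 cases, vehicle animals 1 and 4 and HPβCD animals 2 and 3, where 2996, 4216, 2922 and 3565 genes had an unadjusted p under 0.05.

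Signs of differences that were not called turned in a few settings. *Slc13a4* was -0.025 with limma-voom and -0.14 without vehicle animals 1 and 3. *Cldn11* was -0.12 and -0.042 in the same settings and ran from -0.026 to 0.33 with single animals left out. *Cdh1* was -0.011 with library totals and ran from -0.044 to 0.16, and *Slc6a20a* ran from -0.27 to 0.17. *Slc6a13*, *Slc47a1*, *Slc13a3*, *Slc22a6*, *Slc22a8* and *Dpp4* kept their sign in all 16 settings. The 13 called genes of the other lists kept their sign in all 16 settings, but 5 remained called without vehicle animals 1 and 3 together and 1 with library totals. Relative to *Col1a2* alone *Dpp4* shifted by -1.61, and *Slc47a1* by -0.58 relative to *Col1a2* and by 0.03 relative to *Dcn*. With 4 animals per group and intervals this wide, changes smaller than about the interval of each gene could not be told from none.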
